A study of Homo sapiens with 12 samples.

Results

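A set of genes of the YAP-TEAD axis were followed in H3K27ac peak lists from HCT116 cells, a human colorectal cancer line grown as an epithelial monolayer. The 9 members were chosen by name out of 20007 protein-coding genes. They are 5 genes known as targets of YAP and TEAD (CCN1, CCN2, ANKRD1, AMOTL2 and AJUBA), 2 of the TEAD DNA-binding proteins (TEAD1 and TEAD4) and both coactivators (YAP1, and WWTR1, which encodes TAZ). For each member, every peak within 1 kb of any GENCODE transcript start was taken as a start-site peak, and every peak within 50 kb of those starts as a nearby peak. Of 38598 merged H3K27ac regions in the series, 58 lay within 50 kb of a member.

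The Hippo pathway is a kinase cascade that reads cell contact and tension. When its kinases MST and LATS are active, YAP and TAZ are phosphorylated and kept in the cytoplasm, and when they are inactive YAP and TAZ enter the nucleus, where they bind TEAD proteins because they cannot bind DNA themselves. TEAD proteins recognise the word GGAATG, and at many enhancers they sit beside AP1, a dimer of FOS and JUN proteins that recognises TGACTCA and whose activity follows MAPK signaling. In the intestine the axis is known for its part in regeneration and in colorectal tumor growth.

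CUT&RUN cuts and releases chromatin that an antibody has marked, here the acetylated histone H3 lysine 27 found at active promoters and enhancers. Cells were left untreated, were given 1 μM cobimetinib, an inhibitor of the MAPK kinase MEK, for 24 hours, or were given the inflammatory cytokine TNFα at 100 ng/ml for 24 hours. Each condition had 2 H3K27ac libraries, and the 6 IgG libraries of the series are not analysed here. The study describes treatment replicates, and neither it nor the labels say whether these were separate cultures, so the spread between libraries may be technical in part. With 2 libraries against 2 the smallest two-sided p an exact permutation test can reach is 0.333, so all comparisons are descriptions.

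The 6 lists held 69813 to 124771 peaks and put a start-site peak at 11770 to 13090 protein-coding genes. Sequencing depth is unknown from them, so a peak was described by its rank within its own list, with rank 1 for the highest score and small ranks for strong peaks. Untreated replicate 2 stood apart: its 20000 highest peaks had a median width of 380 bp, against 922 to 1265.5 bp in the other 5 lists, and its peak names mark it as merged after resequencing. Counts of genes and regions against untreated cells are therefore given with and without it. The epithelial markers EPCAM, CDH1, KRT8, KRT18 and KRT19 and the intestinal factor CDX2 had start-site peaks in all 6 lists, whereas the intestinal genes VIL1 and CDX1 had none in any list. None of 9 marker genes of blood, fibroblast, liver, astrocyte, muscle and endothelium (0 of 9) had a start-site peak in all 6 lists.

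The sequences upstream of the target genes show what a TEAD word looks like in its place. Each is the 250 bases before a RefSeq start (GRCh38.p14, all on the minus strand, written 5′ to 3′), with GGAATG or its reverse complement CATTCC in capitals. They are shown because CCN2 and ANKRD1 had the weakest start-site peaks of the 9 members and AMOTL2 one of the strongest. They are from CCN2 (chr6:131951373-131951622), ANKRD1 (chr10:90921088-90921337) and AMOTL2 (chr3:134374448-134374697).
CCN2 upstream: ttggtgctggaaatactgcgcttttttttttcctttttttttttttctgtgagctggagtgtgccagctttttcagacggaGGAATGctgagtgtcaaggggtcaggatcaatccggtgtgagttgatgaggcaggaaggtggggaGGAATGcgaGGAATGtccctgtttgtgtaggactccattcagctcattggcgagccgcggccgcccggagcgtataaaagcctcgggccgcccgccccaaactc
ANKRD1 upstream: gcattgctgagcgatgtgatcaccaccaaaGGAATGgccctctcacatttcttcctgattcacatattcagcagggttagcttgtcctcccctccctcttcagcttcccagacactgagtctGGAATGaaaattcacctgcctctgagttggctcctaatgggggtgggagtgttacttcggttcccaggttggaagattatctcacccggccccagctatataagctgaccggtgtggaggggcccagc
AMOTL2 upstream: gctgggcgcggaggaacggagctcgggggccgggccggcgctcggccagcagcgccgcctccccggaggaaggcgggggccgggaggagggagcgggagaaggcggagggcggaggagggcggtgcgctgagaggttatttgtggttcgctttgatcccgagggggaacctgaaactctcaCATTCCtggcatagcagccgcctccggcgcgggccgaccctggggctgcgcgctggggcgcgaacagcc
The CCN2 window held the TEAD word 3 times, the ANKRD1 window 2 times and the printed AMOTL2 window 1 time, the last with its first base 69 bases before the start. Another AMOTL2 window (chr3:134375418-134375667), not printed, held none. RefSeq windows were found for CCN2, ANKRD1, AMOTL2, AJUBA, YAP1 and WWTR1, 9 windows in all, of which 5 held the TEAD word on either strand, against 11.9% of 35116 promoter windows of the same length. AMOTL2, AJUBA and WWTR1 had more than 1 window each. Most of these genes were chosen as known YAP-TEAD targets, so this share is not independent of that choice. None of the 9 held the AP1 word TGACTCA or its reverse complement (4.20% of all promoter windows do) or a CArG box, the site of serum response factor (1.16% of all). A match is a description of the letters in the window and does not show that a factor was bound.

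Nearly all members had called start-site peaks, some of them weak. Of the 9 members, 8 had a start-site peak in all 6 libraries, against 51.9% of protein-coding genes. The exception was ANKRD1, which encodes an ankyrin-repeat cofactor best known in muscle and which had no start-site peak in untreated replicate 2 or cobimetinib replicate 2. With only the 40000 highest peaks of each list, 5 members had a start-site peak in all 6 libraries. At the MANE Select start alone, that of the standard transcript, AJUBA and YAP1 also had no peak in untreated replicate 2. By the geometric mean of their ranks, the members ran from WWTR1 (3826) and AMOTL2 (5186) through YAP1 (9959), TEAD4 (12342), AJUBA (13049), TEAD1 (14160) and CCN1 (18432) to ANKRD1 (30704, over the 4 libraries with a peak) and CCN2 (49247). Each member's range over libraries overlapped that of the next in this order, so neighbours did not differ beyond their spread. A score is not corrected for peak width, and this order compares peaks, not amounts of the mark per base. The best peak was also taken over all starts of a member, 11 for WWTR1 and 12 for AMOTL2 but 1 each for ANKRD1 and CCN2. Members with more starts thus had more places for a strong peak. In the region at its MANE Select start alone, WWTR1 had a mean rank of 6964, weaker than that of AMOTL2.

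**Figure D1:**
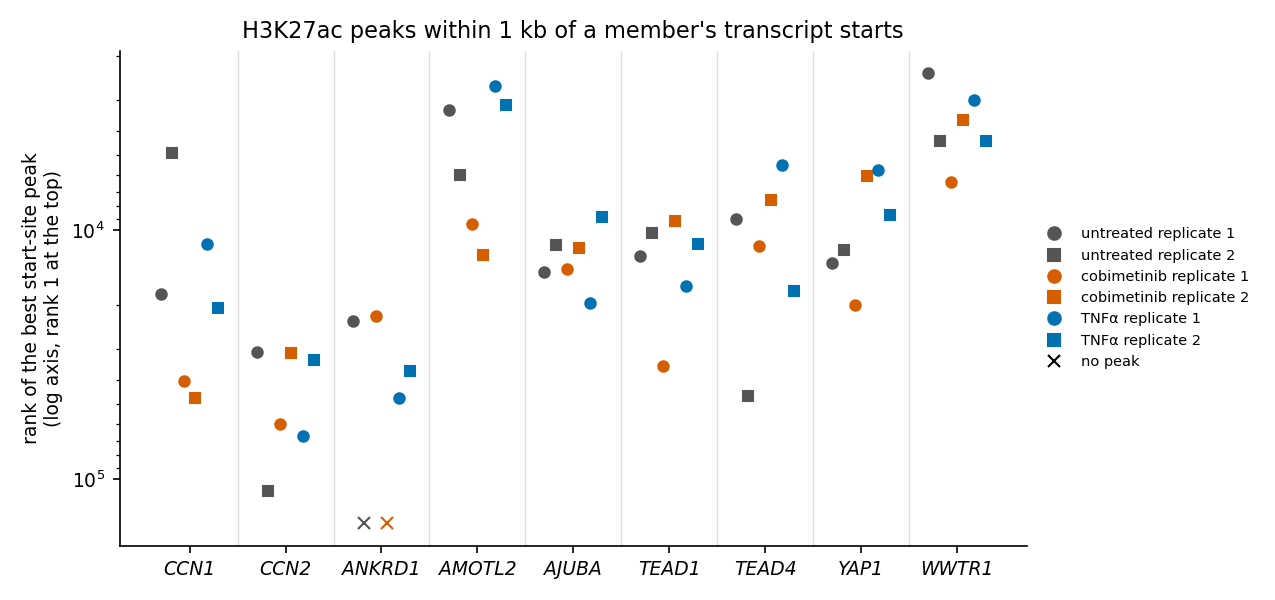
Rank of the best peak within 1 kb of a transcript start for each member in each library (vertical log axis, rank 1 at the top; crosses mark no peak). CCN1 and AMOTL2 are the 2 members whose cobimetinib points lie below all of their untreated and TNFα points.

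CCN1 and AMOTL2 were the 2 members of which both cobimetinib peaks ranked below those of both other conditions. CCN1 encodes a secreted matrix-associated protein and is among the most used readouts of YAP activity. Its start-site peak stood at rank 17970 and 4882 in untreated cells, 40399 and 47259 with cobimetinib, and 11377 and 20575 with TNFα. Both cobimetinib ranks lay well below the other 4, and the untreated and TNFα ranks overlapped. The geometric mean rank with cobimetinib was 4.67 times that in untreated cells and 2.86 times that with TNFα. The peak was 675 and 475 bp wide with cobimetinib and 1255 and 1168 bp with TNFα, and in the untreated libraries it was 1455 and 580 bp, so the width of untreated replicate 2 fell between those of the cobimetinib libraries. Of the 4 alternative settings that could undo them (starts within 2 kb, protein-coding transcripts, rank divided by list length and the 40000 highest peaks), CCN1 kept both rank calls in 3 and lost them with the 40000 highest peaks, since both cobimetinib peaks lay outside these.

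AMOTL2 encodes an angiomotin-family scaffold that binds YAP at cell junctions and holds it out of the nucleus, and it is itself a target of YAP and TEAD. Its start-site peak stood at rank 3288 and 6029 in untreated cells, 9425 and 12575 with cobimetinib, and 2637 and 3140 with TNFα. The 3 conditions did not overlap, with TNFα highest, untreated cells between and cobimetinib lowest. The gap between TNFα and untreated cells was narrow, with 3140 against 3288 in the nearest libraries. The geometric mean rank with cobimetinib was 3.78 times that with TNFα and 2.45 times that in untreated cells, and the untreated mean was 1.55 times that with TNFα. All 3 orders of AMOTL2 held in the same 4 settings. Widths did not follow the ranks: the peak was 1149 and 1991 bp wide with cobimetinib and 1524 and 1621 bp with TNFα.

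The other 3 targets showed no such separation. CCN2, which encodes connective tissue growth factor, had weak start-site peaks that ranked 30830 and 111728 in untreated cells, 60214 and 31009 with cobimetinib and 66760 and 33224 with TNFα. Those ranges overlapped in every pair of conditions, and no CCN2 start-site peak was among the 20000 highest of any list. ANKRD1 ranked 23206 in untreated replicate 1, 22080 in cobimetinib replicate 1, and 47297 and 36672 with TNFα. AJUBA encodes a LIM-domain protein that binds and restrains the LATS kinases. Its best start-site peak ranked 14676 and 11483 in untreated cells, 14301 and 11816 with cobimetinib, and 19659 and 8817 with TNFα, and these ranges overlapped in every pair of conditions. In cobimetinib replicate 2 that peak lay 5200 bp from the MANE Select start, at another start. At the MANE Select start itself AJUBA ranked 14676 in untreated replicate 1, 35243 and 15767 with cobimetinib, and 19659 and 8817 with TNFα, with no peak in untreated replicate 2, and the treatments overlapped there too.

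Neither TEAD gene separated the conditions at its start sites. TEAD1 ranked 12742 and 10226 in untreated cells, 35243 and 9183 with cobimetinib, and 16823 and 11363 with TNFα. The 2 cobimetinib libraries were themselves the lowest and the highest of the 6. TEAD4 ranked 9050 and 46367, 11620 and 7532, and 5485 and 17542 in the same order. Untreated replicate 2 was far below the other 5 there, and its best peak was 247 bp wide and lay 51556 bp from the MANE Select start, the standard transcript's start, at an internal one.

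Of the coactivators, YAP1 ranked higher with TNFα than in untreated cells. Its best start-site peak ranked 13540 and 11990 in untreated cells, 20001 and 6062 with cobimetinib, and 5713 and 8674 with TNFα. Both TNFα ranks were higher than both untreated ranks, with an untreated to TNFα ratio of 1.81, and the cobimetinib libraries spanned the rest. This order held in the same 4 settings. At the MANE Select start alone, however, TNFα replicate 1 had only a 203 bp peak of rank 39958 and untreated replicate 2 had no peak, so the order did not hold at that start alone. The best peaks lay 582 to 1078 bp inside the gene in 5 libraries and over the MANE Select start in untreated replicate 1.

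WWTR1 had peaks at 3 separate starts, and which one was strongest differed with the treatment. In untreated and TNFα libraries the best peak lay at an internal start, 81073 to 81227 bp past the MANE Select start. In both cobimetinib libraries it lay at the most upstream start, 77894 and 78034 bp before the MANE Select start. With protein-coding transcripts only, WWTR1 ranked lower in both cobimetinib libraries than in all untreated and TNFα libraries. The upstream peaks would break that order, so the upstream start is not one of an annotated protein-coding transcript. Whether TAZ is made from the upstream start was not tested. At the internal start (chr3:149575438-149576952), the ranks were 2344 and 4401 in untreated cells, 14057 and 13422 with cobimetinib, and 3002 and 4371 with TNFα. At the upstream start (chr3:149735919-149737101) the order was the opposite, with 32921 and 46367 in untreated cells, 6394 and 3625 with cobimetinib, and 41275 and 61341 with TNFα. Neither start had any overlap between cobimetinib and the other conditions. The upstream region, however, entered the merged regions through peaks of cobimetinib libraries alone, so its separation there follows from that selection. The cobimetinib to TNFα rank ratio was 3.79 at the internal start and 0.0957 at the upstream start. The MANE Select start (chr3:149657543-149659241), named after its values were seen, ranked 4612 and 10226, 9114 and 4787, and 6198 and 8947, and overlapped in every pair of conditions. With the best peak of any start taken, these opposite differences were hidden and WWTR1 ranked 2344 and 4401, 6394 and 3625, and 3002 and 4371.

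The counts over the members are small and stand beside the same counts over all genes. Of the 8 members with a peak in all libraries compared, 2 ranked higher in both untreated than in both cobimetinib libraries (CCN1 and AMOTL2), against 14.1% of genes tested, and 0 of 8 did the reverse, against 21.9%. Likewise 2 of 8 ranked higher with TNFα than untreated (AMOTL2 and YAP1), against 12.8%, and 0 of 8 the reverse, against 16.6%. With TNFα against cobimetinib, 2 of 8 were higher with TNFα, against 15.7%, and 0 of 8 were higher with cobimetinib, against 28.9%. The median log2 ratio of cobimetinib to TNFα rank was 0.40 for the 8 members and -0.22 for all 11355 genes tested. Without untreated replicate 2, 4 of 8 members ranked higher in the untreated library than in both cobimetinib libraries, against 39.8% of genes, and 2 of 9 ranked higher with TNFα than in it, against 19.6%. In the reverse directions, AJUBA alone ranked higher with cobimetinib (1 of 8, against 29.8%), and CCN2, ANKRD1 and WWTR1 ranked higher in the untreated library than with TNFα (3 of 9, against 49.3%).

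**Figure D2:**
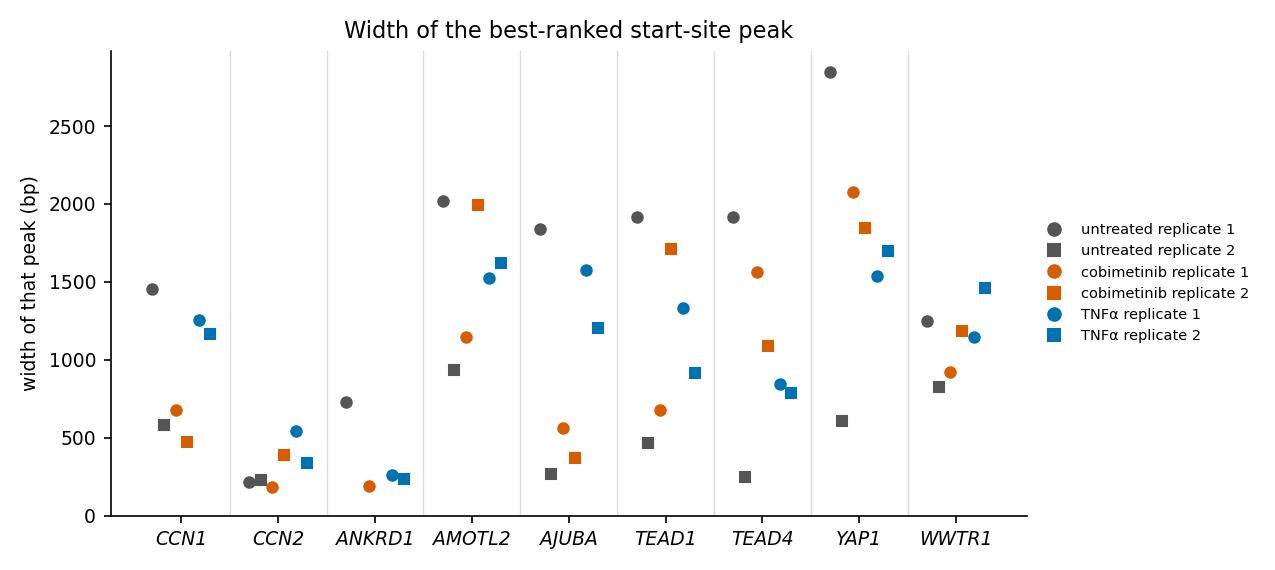
Width in base pairs of the best-ranked start-site peak of each member in each library. Untreated replicate 2 gave peaks of at most 937 bp at every member with a peak, and CCN1 was narrower in both cobimetinib libraries than in both TNFα libraries.

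Beyond the starts, the strongest nearby region of the set lay in an intron of TEAD1. The region chr11:12692530-12695176, 17027 bp from the nearest TEAD1 start, ranked 456 and 1159 in untreated cells, 3803 and 8634 with cobimetinib, and 870 and 410 with TNFα. All 4 untreated and TNFα ranks were far above both cobimetinib ranks. Its cobimetinib to TNFα rank ratio was 9.59 and its cobimetinib to untreated ratio 7.88. Every library still had a peak there, and those peaks covered 2369 and 2228 bp of the region with cobimetinib against 2506 and 2521 bp with TNFα. TEAD1's own start sites did not separate in the same libraries.

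A pair of AMOTL2 regions moved in the same direction as its start. The region chr3:134326713-134328894, 37947 bp from the nearest start and outside any gene, ranked 11615 and 9612 in untreated cells, 22080 and 14285 with cobimetinib, and 4503 and 2139 with TNFα. The 3 conditions did not overlap, and the cobimetinib to TNFα ratio was 5.72. An intronic region closer to the start (chr3:134363449-134365361, named after its values were seen) ranked 13365 and 5617, 16542 and 16629, and 7040 and 3568 in the same order, with a ratio of 3.31. With the start included, 5 of the 7 regions near AMOTL2 ranked higher in both TNFα than in both cobimetinib libraries, and 1 ranked lower. The share over all regions was 20.3%, but the 5 cannot be weighed against it. They include the start and the pair above, whose values were seen before this locus was counted. The rest of the 5 (chr3:134320336-134321202 and chr3:134348229-134349043) entered the merged regions through peaks of TNFα libraries alone.

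The sequences of 4 nearby regions are printed below because they hold the AP1 or TEAD words. Each is the central 300 bp of a region, on the plus strand of hg38 and 5′ to 3′, with GGAATG or CATTCC and TGACTCA or TGAGTCA in capitals. They are the TEAD1 intron (chr11:12693703-12694002), the distal AMOTL2 region (chr3:134327654-134327953), a region 44086 bp from CCN2 (chr6:131995928-131996227) and an intron of WWTR1 (chr3:149646319-149646618).
TEAD1 intron: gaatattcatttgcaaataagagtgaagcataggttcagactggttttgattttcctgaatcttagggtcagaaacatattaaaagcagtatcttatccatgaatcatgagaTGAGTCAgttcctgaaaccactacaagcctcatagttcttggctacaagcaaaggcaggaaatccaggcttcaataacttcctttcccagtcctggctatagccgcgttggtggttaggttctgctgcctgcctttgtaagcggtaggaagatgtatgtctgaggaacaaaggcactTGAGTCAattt
AMOTL2 distal: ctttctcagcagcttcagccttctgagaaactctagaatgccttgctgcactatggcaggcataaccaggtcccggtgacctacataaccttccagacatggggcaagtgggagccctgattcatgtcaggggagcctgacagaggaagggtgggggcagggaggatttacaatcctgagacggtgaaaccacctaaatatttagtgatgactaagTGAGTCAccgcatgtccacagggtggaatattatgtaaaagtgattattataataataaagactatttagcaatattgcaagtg
CCN2 distal: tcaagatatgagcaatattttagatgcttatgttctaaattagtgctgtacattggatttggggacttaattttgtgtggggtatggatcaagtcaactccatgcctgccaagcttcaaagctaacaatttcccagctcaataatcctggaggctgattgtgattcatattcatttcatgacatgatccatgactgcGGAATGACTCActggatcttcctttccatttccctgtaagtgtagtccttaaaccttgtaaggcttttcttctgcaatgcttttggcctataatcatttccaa
WWTR1 intron: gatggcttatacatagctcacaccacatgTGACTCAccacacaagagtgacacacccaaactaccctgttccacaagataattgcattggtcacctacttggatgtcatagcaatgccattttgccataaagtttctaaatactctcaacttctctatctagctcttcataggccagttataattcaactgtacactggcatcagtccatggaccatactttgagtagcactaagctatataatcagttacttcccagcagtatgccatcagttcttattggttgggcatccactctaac
The TEAD1 window held the AP1 word 2 times and the AMOTL2 and WWTR1 windows 1 time each. In the CCN2 window the TEAD and AP1 words overlapped by their shared letters TG, so the capitals there run together as one stretch. That CCN2 region ranked 17227 and 32440 in untreated cells, 16542 and 23538 with cobimetinib, and 14012 and 16545 with TNFα, higher with TNFα than in either untreated library, while the TNFα and cobimetinib ranks overlapped.

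Over the 58 regions the AP1 word was in the central 300 bp of 10 (17.2%), against 16.0% of all 38598 regions, and the TEAD word in 13 (22.4%), against 18.3%. Among the 16 nearby regions ranked higher with TNFα than with cobimetinib, 5 held the AP1 word (31.2%) and 3 the TEAD word (18.8%). Among the 8 ranked higher with cobimetinib, 1 held the AP1 word (12.5%) and 3 the TEAD word (37.5%). The same shares over all regions of the series were 29.4% and 19.9% for those higher with TNFα and 13.5% and 20.2% for those higher with cobimetinib. The AP1 shares near the members were thus close to those of the whole series in both directions, and none of the 58 windows held a CArG box, found in 1.59% of all regions.

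**Figure D3:**
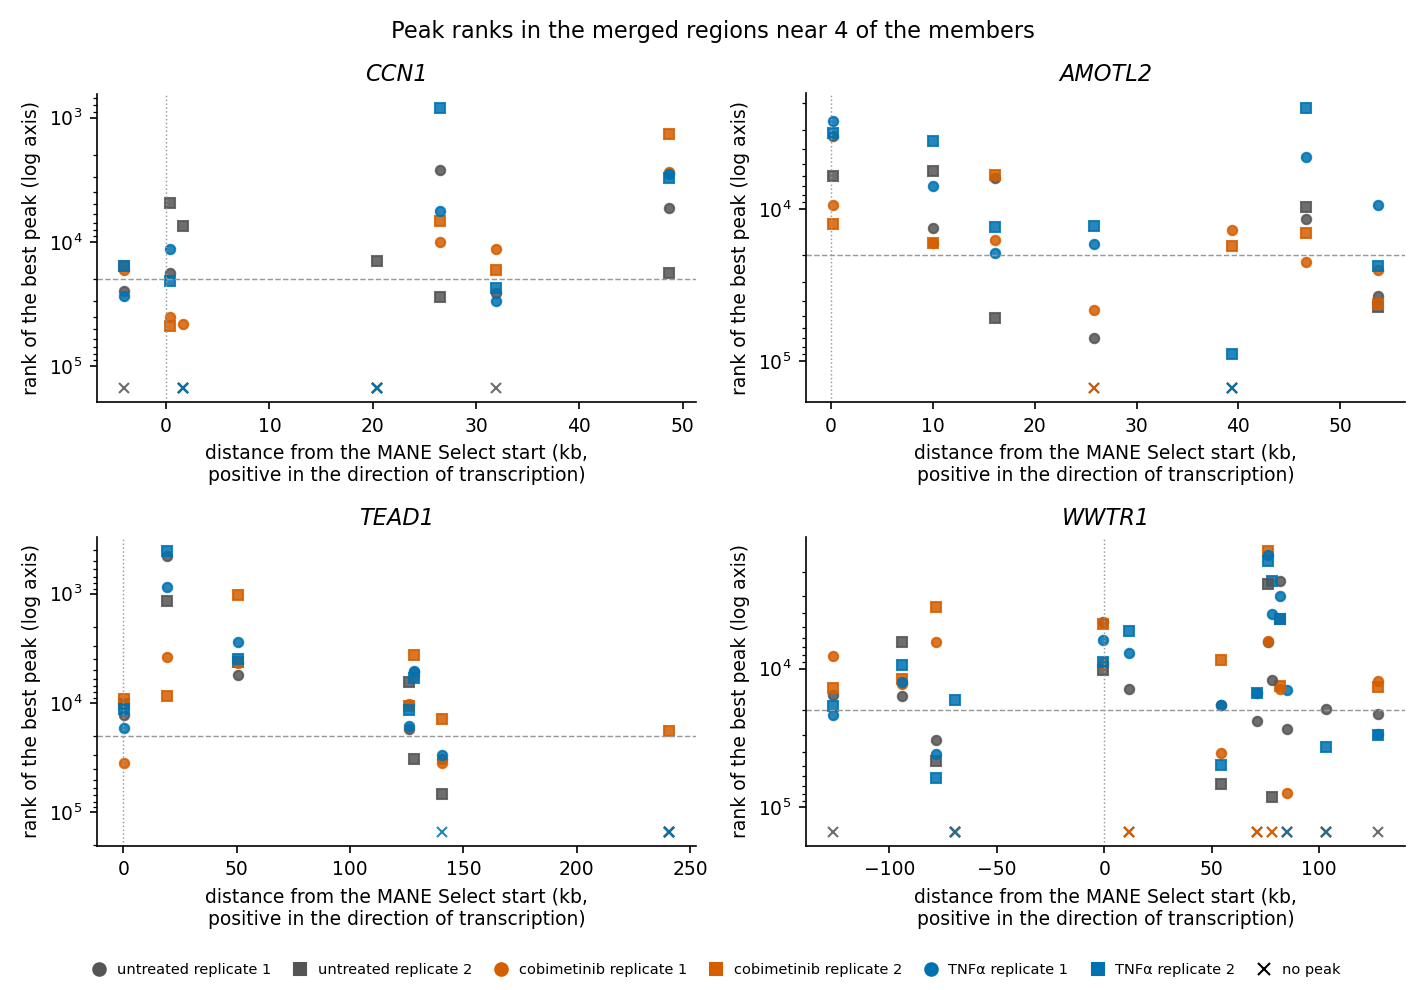
Rank of the best peak in each merged region near CCN1, AMOTL2, TEAD1 and WWTR1 (vertical log axis, rank 1 at the top) against the distance in kb of the region's midpoint from the MANE Select start (dotted line); the dashed line marks rank 20000 and crosses mark no peak. At WWTR1 the cobimetinib points are highest at the upstream start and lowest at the internal start, and at AMOTL2 the TNFα points lead at the start and in the distal region.

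Regions that appeared in one condition among each library's 20000 highest peaks gathered at 4 of the loci. A region was held by a library if it overlapped one of those peaks by 1 bp or more. The regions named here were picked by that rule. Those held by a single condition entered the merged regions through it, so their rank order follows from that selection. At WWTR1, an intronic region (chr3:149579512-149580583) ranked 12003 and 83958 in untreated cells and 4059 and 2329 with TNFα, and it had no peak of any rank with cobimetinib. A second intronic region (chr3:149645963-149646974) ranked 13980 in untreated replicate 1 and 7766 and 5377 with TNFα, again with no peak in either cobimetinib library or in untreated replicate 2. Another (chr3:149586776-149587265) ranked 23848 in untreated replicate 1 and 14951 and 14928 with TNFα, and none of the other 3 libraries had a peak. All 3 of these WWTR1 regions had peaks in both TNFα libraries and in neither cobimetinib library.

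A further WWTR1 region, chr3:149530502-149531124, went the other way and was held by the cobimetinib libraries alone, at ranks 12205 and 13646. By that selection the remaining libraries had lower peaks there (21101 in untreated replicate 1, and 29878 and 30006 with TNFα) or, in untreated replicate 2, none. Together with the upstream start, WWTR1 thus had 2 regions held with cobimetinib and not with TNFα, and 3 of the reverse kind. The best region beyond 1 kb, chr3:149580874-149582816, was strong everywhere, at 6448 and 2450, 6302 and 1428, and 1516 and 1678.

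At AMOTL2, the region chr3:134348229-134349043 ranked 16823 and 12886 with TNFα, 70125 in untreated replicate 1 and 45667 in cobimetinib replicate 1, with no peak in the second library of either condition. The region chr3:134334713-134335429 ranked 13682 and 17529 with cobimetinib, had no peak in either untreated library, and had only a peak of rank 90124 in TNFα replicate 2. Thus AMOTL2 had a region of each kind within 50 kb. Each entered the merged regions only through the condition in which it ranked higher, so neither order can be set against that of the start site. At TEAD4, a region in an intron of the neighbouring gene TULP3 (chr12:2932792-2933491) was held by the TNFα libraries alone, at 14543 and 14068, against 21101 and 102407 in untreated cells and 44276 in cobimetinib replicate 1.

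At CCN1 the start and its surroundings went different ways. The start-site region (chr1:85580375-85581829) was the single region of the 58 held by both untreated and neither cobimetinib library. There were 2 nearby regions held with cobimetinib and in neither untreated library. The region chr1:85576159-85577279, before the start, ranked 16868 and 15767 with cobimetinib, 24928 in untreated replicate 1, and 27360 and 15548 with TNFα. It lay in an intron of the neighbouring gene DDAH1, 1084 bp from a DDAH1 start and 3482 bp from the nearest CCN1 start, so the gene it serves cannot be told. The region chr1:85612097-85613205, 30634 bp past the nearest start, ranked 11441 and 16932 with cobimetinib, 25652 in untreated replicate 1, and 29878 and 23485 with TNFα. Untreated replicate 2 had no peak in either.

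Farther out, the CCN1 region chr1:85628383-85630413 ranked 2728 and 1353 with cobimetinib, 2855 and 3050 with TNFα, and 5304 and 17824 in untreated cells. Both treatments ranked above both untreated libraries there. The region chr1:85606497-85608008, named after its values were seen, ranked 5653 and 831 with TNFα, 10037 and 6791 with cobimetinib, and 2623 and 27559 in untreated cells, so that only the 2 treatments separated (ratio 3.81). Cobimetinib thus ranked lower than TNFα at the start and at 1 distal region of CCN1 and higher at 2 others. Of these 2, chr1:85612097-85613205 entered the merged regions through cobimetinib peaks alone, so its order follows from that selection. The other, chr1:85628383-85630413, was held by all 6 libraries.

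The remaining members had no region held by both libraries of one condition and by neither of another. Near YAP1, the intronic region chr11:102177701-102178993 ranked 4054 and 3711 in untreated cells, 5206 and 15475 with cobimetinib, and 6198 and 3331 with TNFα, so that both untreated libraries lay above both cobimetinib libraries. The best region beyond 1 kb of AJUBA (chr14:23006338-23007753) sat at the start of C14orf93, and the single region near ANKRD1 (chr10:90871879-90872899) at the start of RPP30. Both overlapped in every pair of conditions, and because H3K27ac peaks carry no gene label, the gene that such a region serves cannot be told apart.

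Counted over the 58 regions, 14 were held by all 6 libraries and 17 by 1, of which 4 were held by untreated replicate 2 alone. A single region (1 of 58, 1.72%) was held by both untreated and neither cobimetinib library, against 1.60% of all regions, and 5 (8.62%) the reverse, against 3.92%. With TNFα, 3 (5.17%) were held that neither untreated library held, against 3.56%, and 0 the reverse, against 1.00%. Between the treatments, 5 (8.62%) were held with TNFα and not cobimetinib, against 5.41%, and 4 (6.90%) the reverse, against 4.39%. Without untreated replicate 2, 5 regions were held by the untreated library and neither cobimetinib library, against 8.33% of all regions, and 5 the reverse, against 4.72%. In the same setting 3 were held by both TNFα libraries and not by the untreated one, against 4.40%, and 3 the reverse, against 7.26%.

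By rank, 16 of the 58 regions (27.6%) were higher in both TNFα than in both cobimetinib libraries, against 20.3% of all regions, and 8 (13.8%) were lower, against 21.8%. The untreated libraries ranked 8 regions above cobimetinib (13.8%), against 11.4%, and 7 below it (12.1%), against 19.3%. TNFα ranked 15 above the untreated libraries (25.9%), against 16.9%, and 0 below them, against 9.56%. The counts against untreated cells depended on untreated replicate 2. Without it, TNFα ranked 18 regions above the untreated library, against 22.1%, and 10 below it, against 32.1%. Likewise 23 ranked higher untreated than with cobimetinib, against 31.7%, and 11 lower, against 24.2%. Of the 35 nearby regions with a peak in all 4 treated libraries, 20 (57.1%) had the better mean rank with TNFα, against 46.7% of 21911 regions in the series.

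**Figure D4:**
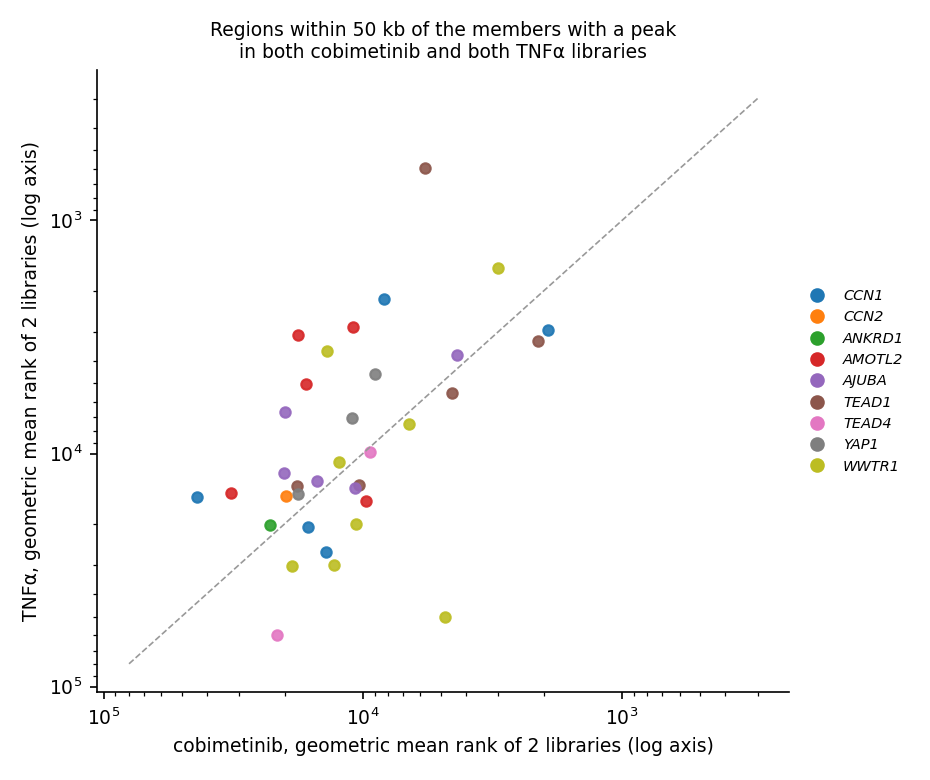
Geometric mean rank with cobimetinib (horizontal) and TNFα (vertical) of the 35 regions near the members with a peak in both libraries of both treatments; both axes are logarithmic with strong peaks toward the upper right, the dashed line marks equal ranks and colors mark the member. The TEAD1 intron lies farthest above the line and the upstream WWTR1 start farthest below it.

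The 58 regions were spread unevenly over the loci, with 14 near WWTR1, 9 near AJUBA, 7 each near CCN1, AMOTL2 and TEAD1, 6 near TEAD4, 5 near YAP1, 2 near CCN2 and 1 near ANKRD1. Loci with more annotated starts have wider windows, and WWTR1 had the most start windows, so these counts are not densities. All peaks within 50 kb of the members covered 84588 and 43981 bp in the untreated libraries, 70288 and 62414 bp with cobimetinib, and 68347 and 67315 bp with TNFα. The replicates of untreated cells thus differed more than the treatments did.

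Genes elsewhere in the pathway showed both directions. Of 16 Hippo kinases, adaptors and cofactors, 15 had a start-site peak in all 6 libraries. Of all 16, 3 ranked higher with TNFα than with cobimetinib, against 15.7% of all genes: VGLL4, a cofactor that competes with YAP for TEAD, TEAD2, and the upstream regulator NF2. Another 4 of 16 ranked higher with cobimetinib, against 28.9%: the kinases LATS1, STK3 and TAOK1 and the adaptor SAV1. LATS1, which phosphorylates YAP, ranked 3788 and 2450 in untreated cells, 1638 and 1804 with cobimetinib, and 4327 and 7064 with TNFα. Its cobimetinib ranks were the best of the 6, as were those of TAOK1, at 1188 and 2644 against 5571 and 4653 untreated and 7183 and 12265 with TNFα. Against untreated cells, 1 of 15 ranked lower with cobimetinib (14.1% of all genes) and 3 of 15 higher (21.9%), and 1 of 15 ranked higher with TNFα (12.8%) and 3 of 15 lower (16.6%). Without untreated replicate 2 these were 8, 4, 3 and 11 of 16, against 39.8%, 29.8%, 19.6% and 49.3% of all genes.

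Of 17 further genes known as YAP-TEAD targets, 12 had a start-site peak in all 6 libraries and IGFBP3 and FOXF2 had none in any. Of those 12, 5 ranked higher in untreated than in cobimetinib libraries, namely ASAP1, AXL, FJX1, NT5E and NUAK2, against 14.1% of all genes, and 2 of 12 the reverse, against 21.9%. Without untreated replicate 2 these were 6 and 2 of 12, against 39.8% and 29.8%. AXL, a receptor tyrosine kinase, ranked 6448 and 2666 in untreated cells, 7176 and 7080 with cobimetinib, and 4608 and 3184 with TNFα. Both cobimetinib ranks were below the other 4. FJX1, which encodes a secreted protein, ranked 27780 and 49366, 74494 and 68478, and 26056 and 36672, again with cobimetinib lowest. With TNFα against cobimetinib, AXL and FJX1 were the 2 of 12 that ranked higher, against 15.7% of all genes, and the phosphatase gene PTPN14 the 1 of 12 that ranked lower, against 28.9%, at 2810 and 5905 with TNFα against 775 and 1988 with cobimetinib. Against untreated cells, 1 of 12 ranked higher with TNFα (12.8%) and 4 of 12 lower (16.6%), and without untreated replicate 2, 2 and 5 of 12 (19.6% and 49.3%).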

How the data were processed

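Per the labels, H3K27ac CUT&RUN libraries were made from HCT116 cells in 3 conditions with 2 replicates each. According to the submitters' processing notes and the study's methods, the authors aligned reads to hg38 with BWA 0.7.15 and called peaks library by library with MACS2 2.1.1, with a lenient p-value and no IgG control. The methods describe calling in a paired-end and a single-end mode. For each sample the peaks of both modes were merged and the highest score was kept, so widths are those of merged intervals. The deposited value is a peak score set by the authors, a whole number of at least 20 that rises with depth. It was used only to rank peaks within a list. Read depth is unknown, and no count test was possible.

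Transcript starts came from GENCODE version 44. Chromosome names and lengths of hg38 were compared with the lists, and every peak ended inside its chromosome. The 20000 highest-scoring peaks of each list were merged within 100 bp into regions. A gene or region ranked higher in one condition where both of its libraries ranked above both of the other's. Genes needed a peak in all 4 libraries, and absent peaks in regions were placed last. Words were searched on both strands. Named regions were the best at the starts, the best beyond 1 kb, and those held by one condition and not another. Members and lists were chosen with earlier results of these data known. Functions were tested on simulated lists. Python 3.11.15, NumPy 2.4.6 and matplotlib 3.10.9 were used.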

Additional observations from a re-analysis of the deposited data

How the results depend on the processing

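No paired analysis was possible because no result comes from a test: each is a count or a rank set beside the same value over all genes or regions. With the 40000 highest peaks, members with a start-site peak in all 6 libraries fell from 8 to 5, members ranked higher with TNFα than with cobimetinib or lower with cobimetinib than untreated from 2 to 1 each, and regions held with TNFα and not cobimetinib rose from 5 to 9. With all peaks, the regions held with TNFα and not cobimetinib numbered 9, those held untreated and not with cobimetinib 4 rather than 1, those held with TNFα and not untreated 6 rather than 3, and those ranked higher with TNFα than cobimetinib 26 rather than 16. A window of 100 kb gave 8, 7 and 25 for the first, the third and the last of these. Requiring peaks to cover 50% of a region left 0 held untreated and not with cobimetinib. These settings change how many peaks or bases enter. Leaving out each library gave 2 to 5 members for each of the 3 start-site orders (5 for TNFα over cobimetinib without replicate 2 of either, 4 and 5 for untreated over cobimetinib without untreated or cobimetinib replicate 2, 5 for TNFα over untreated without untreated replicate 1). It gave 8 to 9 regions held with TNFα and not cobimetinib, whichever of the 4 libraries was left out, and 1 to 5 held untreated and not with cobimetinib (5, 5 and 4 without untreated replicate 1 or 2 or cobimetinib replicate 2). Regions held with TNFα and not untreated came to 3 to 13 (13, 8 and 6 without untreated replicate 1 or TNFα replicate 1 or 2), and regions ranked higher with TNFα than cobimetinib to 19 to 27 (27 without TNFα replicate 1). The count of 15 regions higher with TNFα than untreated, for which this alternative was chosen after seeing the data, became 18 to 32, the 32 again without untreated replicate 1. Dividing ranks by list length, or using protein-coding transcripts, added WWTR1 to the members higher with TNFα than cobimetinib and higher untreated than with cobimetinib, 3 each. Leaving out a library or placing absent peaks last cannot undo an order of both libraries above both, so only 4 settings bore on those orders. AMOTL2 and YAP1 kept theirs in 4 of 4 and CCN1 in 3 of 4. Without untreated replicate 2, also chosen after seeing the data, regions ranked higher untreated than with cobimetinib went from 8 to 23 and the reverse from 7 to 11, and regions above TNFα in untreated cells from 0 to 10 by rank and 0 to 3 held. Members at start sites went from 0 to 1 for cobimetinib over untreated and 0 to 3 for untreated over TNFα. Hippo genes went from 1 to 8 for untreated over cobimetinib, 1 to 3 for TNFα over untreated and 3 to 11 for the reverse, and further targets from 1 to 2 for TNFα over untreated. Unknown depth limits every comparison: an absent peak does not show an absent mark.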
